A study of Mus musculus with 6 samples.

Results

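The genes of the mitochondrial respiratory chain were examined in the livers of mice that cannot make ascorbic acid (AA, vitamin C), with and without AA, and of wild-type mice. Members were the genes on probe sets whose only gene symbol starts with Nduf, Sdha, Sdhb, Sdhc, Sdhd, Uqcr, Cox4, Cox5, Cox6, Cox7, Cox8 or Atp5. Each gene was represented by its probe set of highest mean over the 6 arrays, and the rule found 93 of the 19550 genes with a value. Complex I contributed 41 of them, complex II 8, complex III 8, complex IV 19 and complex V 17. The rule used names and mean level, not the comparisons between groups. The prefixes also brought in 7 assembly factors of complex I and 4 of complex II, which build a complex but are not part of it. Cox7c, Ndufb4, Ndufb4b and Ndufs5-ps lay only on probe sets shared between genes and were not analysed here.

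The respiratory chain sits in the inner mitochondrial membrane. Complex I takes electrons from NADH and complex II takes them from succinate, ubiquinone carries them to complex III, and cytochrome c carries them on to complex IV, which reduces oxygen. Complexes I, III and IV pump protons, and complex V, the ATP synthase, uses the return of these protons to make ATP. Most subunits are encoded in the nucleus and a few in mitochondrial DNA, and hepatocytes, with their many mitochondria, depend on the chain for gluconeogenesis, ureagenesis and fatty acid oxidation.

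Liver RNA of male C57BL/6NCrSlc mice was hybridised to 6 Affymetrix arrays in 3 groups of 2. One group were knockouts of SMP30/GNL (senescence marker protein 30, the gluconolactonase needed to make AA, encoded by Rgn) kept AA-deficient. Another were the same knockouts supplemented with AA in drinking water stabilised with EDTA, at a dose described as keeping tissue AA normal, and the last were wild-type mice on a diet and water without the vitamin, which can make their own AA. All mice ate the diet without AA. The series asks how SMP30 and AA bear on the liver transcriptome. The age of the mice, the part of Rgn that was removed and whether the other mice drank EDTA were not stated in the material used here. The labels list 2 samples a group without naming their animals or cultures. The p-values therefore reflect the spread among these samples alone, and that spread could be technical.

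Values are printed in the deposited log units, read as log10 because they span 1212.9-fold on that base and only 8.48-fold on base 2. A difference of 0.1 therefore stands for 1.26-fold, and folds in the text hold on that reading only. A gene was called when its limma p, adjusted by the Benjamini-Hochberg method over all 14662 genes tested, was under 0.05. Of the members, 89 had a mean high enough to be tested, and Cox7b2, Cox8b, Ndufa4l2 and Ndufaf5 stayed below the filter. The median member had a 95% confidence interval of ±0.107 around a difference, or 1.28-fold. That interval is for 1 gene before adjustment, so with 2 arrays a group a call mostly needed a larger difference. In AA-deficient knockouts against wild type, Ndufaf4 at -0.157 and Atp5e at -0.131 were not called (limma adjusted p = 0.145 and 0.2). The targeted gene Rgn was at 0.228 and 0.297 on the AA-deficient knockout arrays and at 0.339 and 0.141 on the AA-supplemented ones, against 2.070 and 1.996 in wild type. Rgn fell in both, with limma adjusted p of 8.98e-05 and 8.11e-05. The genotype of all 4 knockout arrays therefore matched their labels, while Rgn does not check which of them were AA-deficient. Hepatocyte markers (8 of 8 with a value) had a median level of 2.12.

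AA deficiency within the knockouts left no respiratory chain gene past the threshold. In AA-deficient against AA-supplemented knockouts, 0 of 89 tested members were called, against 0.205% of all genes tested (0.0409% higher, 0.164% lower), and 0 also had an unadjusted limma p under 0.05, against 9.92% of all genes (5.38% higher, 4.54% lower). Of the 93 members 48 were higher and 45 lower, with a median difference of 0.0023 and a range from -0.0775 to 0.0999. The groups did not overlap for 14 members (15.1%), 8 higher and 6 lower, against 37.3% of all genes tested (19.8% higher, 17.5% lower). The median absolute difference was 0.0203 among members and 0.041 among all genes tested.

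Against wild type the members were mostly lower in both knockout groups, by little, and 1 passed. In AA-deficient knockouts 66 of 93 members were lower and 27 higher than in wild type, with a median difference of -0.0341, against -0.0034 over all genes tested. One member was called, Sdhaf1, and it was lower, where 4.63% of all genes tested were called, 1.55% lower and 3.08% higher. An unadjusted p under 0.05 was reached by 8 members, all lower, which is 8.99% of those tested, against 20.4% of all genes, 8.57% lower and 11.8% higher. The groups were apart for 42 members lower and 8 higher, together 53.8%, where 54.5% of all genes tested were apart, 26.9% lower and 27.6% higher. The share of members called or apart was thus not above the background, and only its direction was uneven.

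In AA-supplemented knockouts 68 members were lower and 25 higher than in wild type, with a median of -0.0337 against -0.0017 over all genes tested. None of the 89 tested members was called by limma, against 0.00682% of all genes, which is Rgn alone. An unadjusted p under 0.05 was reached by 3 members lower (Sdhaf1, Ndufs5 and Sdhaf2) and 1 higher (Sdha), against 10.6% of all genes, 3.84% lower and 6.78% higher. The groups were apart for 31 members (33.3%), 29 lower and 2 higher, against 38.6% of all genes tested (18.8% lower, 19.8% higher). Both comparisons use the same wild-type arrays, so their likeness is not independent evidence.

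Over the members together, the size of this lower level rested on 1 array. Over the 93 members the median deviation from each gene's own mean was 0.0066 and -0.0209 on the AA-deficient arrays and -0.0127 and -0.0215 on the AA-supplemented ones, against 0.0426 and -0.001 on the wild-type arrays. Over all members, only wild-type array 1 stood clearly above the others. For the 41 members of complex I both wild-type arrays (0.0426 and 0.0134) were above the knockout ones (-0.0061, -0.0194, 0.0066 and -0.0313). In complexes II to V wild-type array 2 was not above every knockout array. Without wild-type array 1 the median difference was -0.0124 in AA-deficient knockouts, with 53 members lower, and -0.0093 in AA-supplemented ones, with 52 lower. The medians over all genes tested were then 0.0048 and 0.0036. Without wild-type array 2 the members' medians were -0.0492 and -0.0585, against -0.0095 and -0.0078 over all genes tested.

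**Figure D1:**
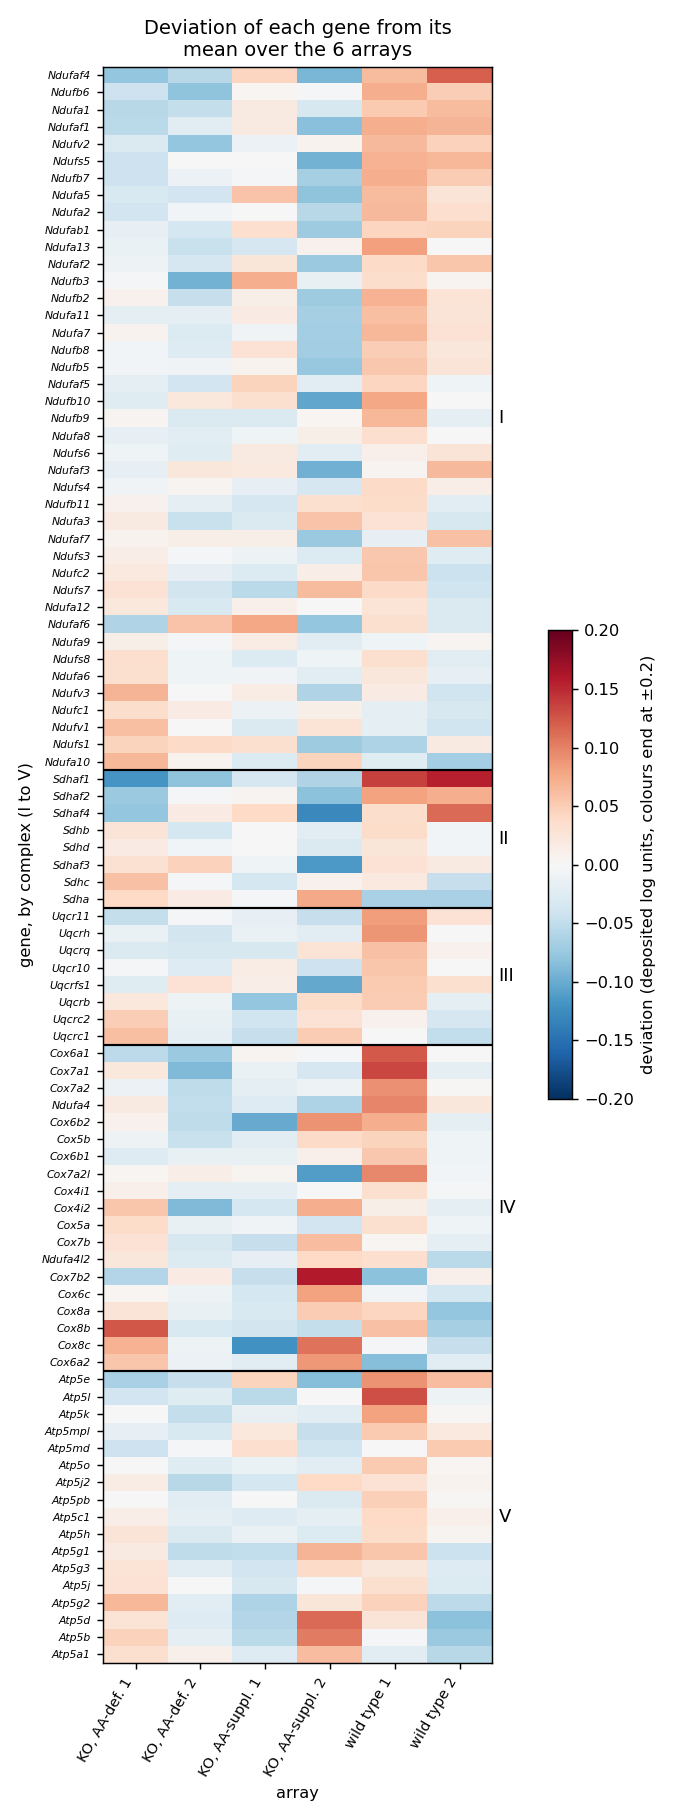
Deviation of each of the 93 genes (rows, by complex) from its mean over the 6 arrays (columns), in deposited log units. Wild-type array 1 is above the mean for most genes, and Sdhaf1 is the gene with the deepest contrast between the knockout and wild-type arrays.

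Genes of complex II, succinate dehydrogenase, held the lowest and the highest difference from wild type, in the assembly factor Sdhaf1 and the subunit Sdha. The complex is shared by the respiratory chain and the tricarboxylic acid cycle, and its assembly factors Sdhaf1 to Sdhaf4 mature its catalytic subunits. Its 4 subunits ran from -0.0202 to 0.0928 in AA-deficient and from -0.0278 to 0.1013 in AA-supplemented knockouts. Sdhaf1, a factor of the LYR motif family that helps iron-sulphur clusters reach Sdhb, was at 0.646 and 0.684 in AA-deficient knockouts and at 0.731 and 0.703 in AA-supplemented knockouts, against 0.901 and 0.920 in wild type. All 4 knockout arrays were below both wild-type arrays, and the AA-deficient ones were the lowest. Sdhaf1 fell by 0.245 ± 0.041 (SE, n = 2 each) in AA-deficient knockouts, which is 1.76-fold, with a limma adjusted p of 0.0232.

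In AA-supplemented knockouts the Sdhaf1 difference from wild type was -0.193 with a limma adjusted p of 0.19, and between the knockout groups it was -0.0522 with an adjusted p of 0.787. The call in AA-deficient knockouts was lost without the filter on low genes (adjusted p = 0.0581), with the trend on gene span removed (0.0633) and with either AA-deficient array left out (0.128 and 0.108) or either wild-type array left out (0.157 and 0.14), while the difference stayed between -0.264 and -0.226 in these leave-outs. Over the other alternatives run except the replicate block the adjusted p lay between 0.00475 and 0.0234.

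Sdhaf2, which helps attach flavin to Sdha, was at 0.744 and 0.816 in AA-deficient and at 0.825 and 0.737 in AA-supplemented knockouts, against 0.899 and 0.892 in wild type. Its 4 knockout values were below both wild-type values, by 0.116 and 0.115 on average, with limma adjusted p of 0.225 and 0.459. Sdhaf4, which binds flavinated Sdha, was at 0.391 and 0.485 in AA-deficient and at 0.507 and 0.340 in AA-supplemented knockouts, against 0.502 and 0.581 in wild type, and its AA-supplemented values overlapped wild type. Sdhaf3, which acts with Sdhaf1 on Sdhb, was at 0.773 and 0.788 in AA-deficient knockouts, at 0.734 and 0.627 in AA-supplemented knockouts and at 0.771 and 0.760 in wild type. It had the largest difference of any member between the knockout groups, 0.0999 ± 0.0471 (SE), which did not pass (limma adjusted p = 0.551).

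The catalytic flavoprotein Sdha stood the other way, without passing. It was at 1.828 and 1.806 in AA-deficient and at 1.786 and 1.864 in AA-supplemented knockouts, against 1.724 on each wild-type array. Every knockout value was above both wild-type values. The differences of 0.0928 and 0.101 (SE 0.0436 each) were the highest among the members in their comparisons and did not pass (limma adjusted p = 0.285 and 0.469). The iron-sulphur subunit Sdhb (-0.0202 and -0.0278) and the membrane anchors Sdhc (0.0411 and 0.0009) and Sdhd (-0.0044 and -0.0246) overlapped between each knockout group and wild type. The directions of Sdhb, Sdhc and Sdhd turned under some alternatives, as given in the closing section.

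**Figure D2:**
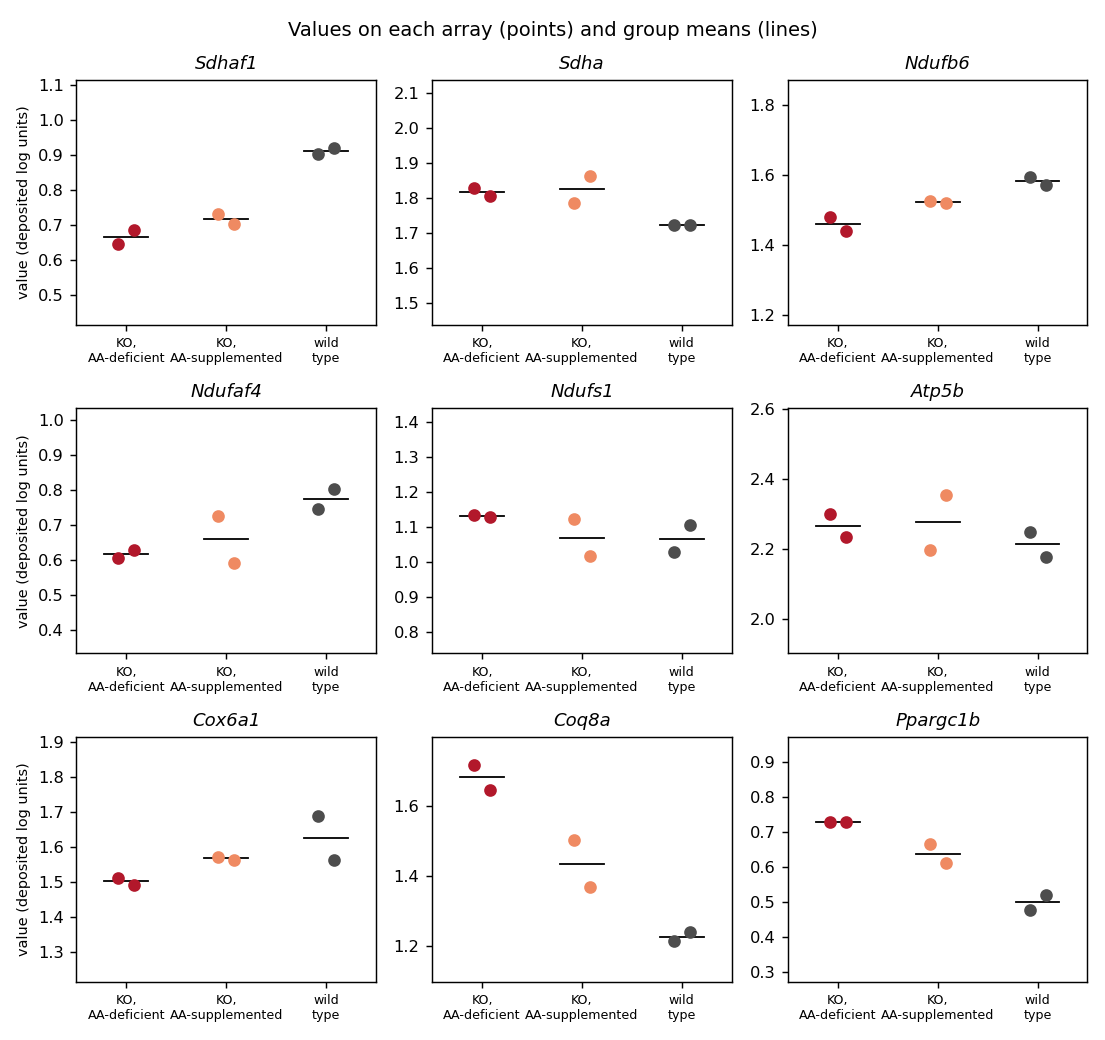
Value on each array (points, deposited log units) and group mean (lines) for 7 respiratory chain genes and for Coq8a and Ppargc1b. Sdhaf1 is below wild type on all 4 knockout arrays, Sdha above it, and Coq8a and Ppargc1b are highest in AA-deficient knockouts.

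Assembly factors of complexes I and II were lower than wild type more uniformly than the subunits in these arrays. The median over the 11 factors was -0.0687 in AA-deficient knockouts, with 10 lower, and -0.085 in AA-supplemented knockouts, with 11 lower, and of these 1 and 0 passed. Over the 73 subunits other than isoforms of other tissues and related proteins it was -0.0341 and -0.0299, with 52 and 53 lower. None of these subunits was called, against 4.63% and 0.00682% of all genes tested. The factors also had lower values, with a median mean of 0.684 against 1.533 for these subunits. The 47 members of lower mean, of either kind, had medians of -0.0465 and -0.0567 in the 2 comparisons, with 36 and 38 lower. The difference between factors and subunits, and the part of level in it, was not tested. Leaving out either wild-type array kept the factors' median between -0.078 and -0.0645 in AA-deficient and between -0.1011 and -0.0791 in AA-supplemented knockouts. Leaving out an AA-supplemented array moved it to -0.138 without array 1 and to -0.032 without array 2, so its size in that group rests on single arrays. All 7 complex I factors were lower in both comparisons, although Ndufaf3, Ndufaf6 and Ndufaf7 overlapped wild type in both.

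Ndufaf4, which acts early in building complex I together with Ndufaf3, was at 0.606 and 0.629 in AA-deficient and at 0.727 and 0.592 in AA-supplemented knockouts, against 0.747 and 0.803 in wild type. The knockout groups did not overlap wild type, and AA-supplemented array 1 came close to it. The difference was -0.157 ± 0.0535 (SE) in AA-deficient knockouts (limma adjusted p = 0.145) and -0.116 in AA-supplemented ones (0.502). Ndufaf1, a factor for the membrane arm of complex I, was at 0.867 and 0.899 in AA-deficient and at 0.939 and 0.838 in AA-supplemented knockouts, against 0.993 and 0.989 in wild type. It too was below wild type on all 4 knockout arrays, with adjusted p of 0.246 and 0.493.

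Among the structural genes of complex I, the 28 accessory subunits were lower more often than the 6 core ones. Accessory subunits surround the catalytic core and stabilise it. Their median was -0.0436 in AA-deficient knockouts (23 of 28 lower) and -0.0517 in AA-supplemented knockouts (23 of 28 lower), and 0 were called in either. Core subunits, most of which bind the flavin or iron-sulphur clusters that pass electrons, had medians of 0.0013 and -0.0104, with 3 of 6 lower in each comparison. This contrast was not tested.

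Ndufb6, an accessory subunit of the membrane arm, was at 1.479 and 1.440 in AA-deficient knockouts and at 1.525 and 1.519 in AA-supplemented knockouts, against 1.593 and 1.570 in wild type. The 3 groups did not overlap and stood in that order. Its difference of -0.122 ± 0.0402 (SE) from wild type in AA-deficient knockouts did not pass (limma adjusted p = 0.136), but did when the prior variance followed the mean value (0.0454). Ndufa1, an accessory subunit encoded on the X chromosome, was at 0.772 and 0.779 in AA-deficient and at 0.845 and 0.795 in AA-supplemented knockouts, against 0.878 and 0.890 in wild type. Its groups stood in the same order without overlap, with an adjusted p of 0.181 in AA-deficient knockouts against wild type.

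The core subunits split. Ndufv2, which holds an iron-sulphur cluster beside the flavin, was at 1.609 and 1.562 in AA-deficient and at 1.627 and 1.645 in AA-supplemented knockouts, against 1.703 and 1.685 in wild type, lower without overlap in both groups (limma adjusted p = 0.186 and 0.676). Its partner Ndufv1, the flavin-binding subunit, was at 1.677 and 1.618 in AA-deficient and at 1.588 and 1.645 in AA-supplemented knockouts, against 1.600 and 1.578 in wild type, above wild type in AA-deficient knockouts (adjusted p = 0.516) and overlapping it in AA-supplemented ones. Ndufs1, the largest iron-sulphur subunit, was at 1.134 and 1.128 in AA-deficient knockouts, at 1.122 and 1.018 in AA-supplemented knockouts and at 1.027 and 1.107 in wild type. The AA-deficient values were above all others, and neither difference passed (adjusted p = 0.801 and 0.546).

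**Figure D3:**
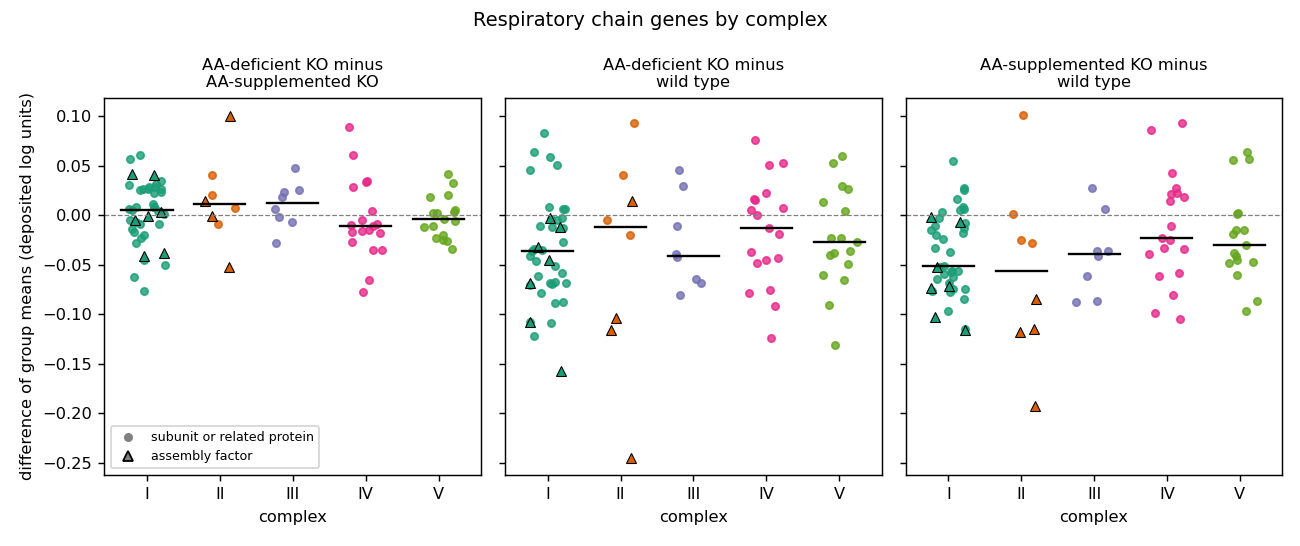
Difference of group means (vertical axis, deposited log units) for each gene, by complex, in the 3 comparisons, with the median of each complex as a line and assembly factors as triangles. Sdhaf1 at -0.245 is the lowest point of AA-deficient knockouts minus wild type, and the differences between knockout groups lie within 0.1 of 0.

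Complex III passes electrons from ubiquinol to cytochrome c. Its 8 members had a median of -0.041 in AA-deficient and -0.0388 in AA-supplemented knockouts against wild type, with 6 lower in each and 0 called. Uqcr11, a small accessory subunit, had the lowest difference in both (-0.0809 and -0.0874), and the core protein Uqcrc1 the highest (0.0461 and 0.0274). The Rieske iron-sulphur protein Uqcrfs1 was at 1.022 and 1.074 in AA-deficient and at 1.058 and 0.942 in AA-supplemented knockouts, against 1.097 and 1.077 in wild type. Its knockout values were below wild type on all 4 arrays, and AA-supplemented array 2 was the lowest.

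Complex IV, cytochrome c oxidase, has subunits that exist as isoforms by tissue. Its 10 ubiquitous or liver subunits had a median of -0.031 in AA-deficient and -0.0241 in AA-supplemented knockouts against wild type, with 7 lower in each and 0 called. Cox6a1, the ubiquitous form of a regulatory subunit, was at 1.513 and 1.492 in AA-deficient and at 1.572 and 1.564 in AA-supplemented knockouts, against 1.689 and 1.565 in wild type. It was lowest in AA-deficient knockouts, and the wild-type arrays differed by more than any knockout pair (adjusted p = 0.213 against wild type). Ndufa4, named for complex I but now placed in complex IV, was at 1.389 and 1.321 in AA-deficient and at 1.345 and 1.308 in AA-supplemented knockouts, against 1.469 and 1.393 in wild type. It was below wild type on all 4 knockout arrays, by 0.0757 and 0.104 on average (adjusted p = 0.422 and 0.49).

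No isoform of another tissue was called in any comparison. Cox6a2, Cox7a1 and Cox8b are the heart and muscle forms, Cox4i2 the lung form, and Cox6b2, Cox7b2 and Cox8c are known from testis. Their means over the 6 arrays lay between 0.130 and 0.429, Cox7b2 and Cox8b were under the filter, and no detection call tells such values from background. Against wild type their median difference was 0.0153 in AA-deficient and 0.018 in AA-supplemented knockouts, with 4 of 7 higher in each. Their arrays scattered, as for Cox7a1 at 0.417 and 0.308 in AA-deficient and at 0.384 and 0.364 in AA-supplemented knockouts, against 0.531 and 0.378 in wild type. Ndufa4l2, the relative of Ndufa4 that is induced by low oxygen, had a mean of 0.0391 and was not tested.

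Complex V divides into the catalytic F1 head and the membrane part with its stalk. The 12 genes of the membrane part and stalk had a median of -0.0367 in AA-deficient and -0.0341 in AA-supplemented knockouts against wild type, with 9 and 10 lower. The 5 genes of the head had medians of 0.0298 and 0.0554, with 3 higher in each. None of the 17 was called in either comparison. Atp5e, the small epsilon subunit, was at 0.960 and 0.979 in AA-deficient and at 1.068 and 0.939 in AA-supplemented knockouts, against 1.115 and 1.086 in wild type, below it on all 4 knockout arrays (adjusted p = 0.2 and 0.559). The catalytic beta subunit Atp5b was at 2.298 and 2.233 in AA-deficient and at 2.197 and 2.355 in AA-supplemented knockouts, against 2.248 and 2.177 in wild type. Its groups overlapped, and the AA-supplemented pair was the widest.

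Several measured properties moved with these small differences. Members had a median genomic span of 7.50 kb, introns included, against 20.18 kb over all genes tested, and across all genes the difference from wild type increased with span (Spearman rho 0.236 in AA-deficient and 0.2 in AA-supplemented knockouts, over 14618 genes that share the arrays). Across the 93 members rho was 0.148 and 0.108. With the trend on span removed, the members' median was -0.0154 in AA-deficient knockouts, with 53 lower, and -0.0228 in AA-supplemented knockouts, with 63 lower. Among members the difference also increased with the gene's mean value (rho 0.3 and 0.377, against 0.059 and 0.011 over all genes). With the trend on mean value removed, the members' median was -0.0391 in AA-deficient knockouts, with 72 lower, and -0.0357 in AA-supplemented ones, with 73 lower.

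**Figure D4:**
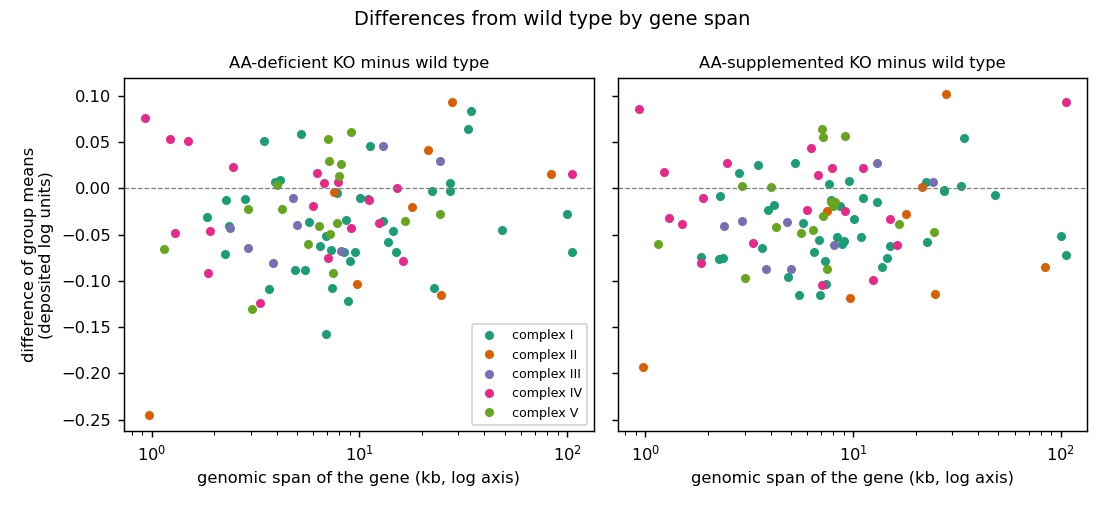
Difference from wild type (vertical axis, deposited log units) against the genomic span of each respiratory chain gene (kb, log axis), coloured by complex, for AA-deficient (left) and AA-supplemented (right) knockouts. Sdhaf1, with a span of 0.97 kb, is the lowest point in both panels.

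Members of low and high mean moved differently on single arrays. The 47 members of lower mean had a median deviation of -0.0061 and -0.0219 on the AA-deficient arrays and 0.0121 and -0.0609 on the AA-supplemented ones, against 0.052 and 0.0181 on the wild-type arrays. The 46 members of higher mean stood at 0.018 and -0.0205, at -0.0268 and 0.0113, and at 0.038 and -0.0173 on the same arrays. On AA-supplemented array 2 the members of lower mean were thus furthest below their means while those of higher mean were slightly above. The AA-supplemented arrays also ran opposite ways in the rank correlation of deviation with mean over the members (-0.516 on array 1 and 0.539 on array 2). Over all genes tested this correlation had the reverse signs, 0.225 on array 1 and -0.22 on array 2. The part of this in the members' differences was not tested.

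Other groups of constitutive genes were lower too. The 74 mitochondrial ribosomal proteins had a median of -0.0582 in AA-deficient and -0.0734 in AA-supplemented knockouts against wild type (lower for 63 and 71 genes). The 55 cytosolic ribosomal proteins stood at -0.0439 and -0.0524 and the 39 proteasome subunits at -0.0538 and -0.0605. None of these genes was called, against 4.63% and 0.00682% of all genes tested. Of mitochondrial ribosomal proteins 64.9% and 68.9% were apart and lower, of cytosolic ones 49.1% and 52.7%, and of proteasome subunits 71.8% and 69.2%. Apart and higher were 5.41% and 0.0%, 3.64% and 3.64%, and 7.69% and 10.3% in that order. Over all genes tested 26.9% and 18.8% were apart and lower and 27.6% and 19.8% higher. Among members 45.2% and 31.2% were lower and 8.6% and 2.15% higher. The 17 genes of the tricarboxylic acid cycle, which feeds the chain, stood at 0.0322 and 0.0066 with 0 called. With 1 array left out, the AA-supplemented median of the tricarboxylic acid cycle ran from -0.0081 (without AA-supplemented array 1) to 0.0399 (without array 2), so its direction turned. It ran from -0.1089 to -0.0394 for mitochondrial ribosomal proteins without the same arrays, and from -0.0836 (without wild-type array 2) to -0.0376 (without wild-type array 1) for cytosolic ribosomal proteins. In AA-deficient knockouts the tricarboxylic acid cycle ran from 0.0304 to 0.0537 (without AA-deficient array 2) and cytosolic ribosomal proteins from -0.0581 to -0.027 (without wild-type array 1). With the span trend removed, the AA-deficient medians became -0.0198 for cytosolic ribosomal proteins, -0.0318 for proteasome subunits and 0.0507 for the tricarboxylic acid cycle. The tricarboxylic acid cycle stood at 0.0181 after quantile normalisation, 0.021 after cyclic loess and 0.0214 with the mean trend removed. The differences between these lists and the respiratory chain genes were not tested.

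**Figure D5:**
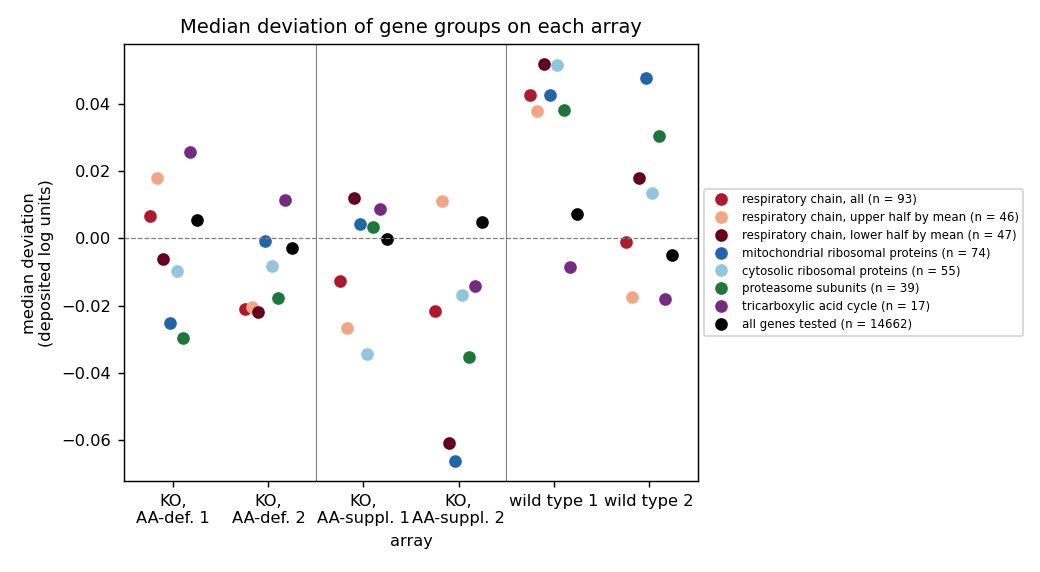
Median deviation from each gene's mean (vertical axis, deposited log units) on each of the 6 arrays for respiratory chain genes, their members of higher and lower mean, 4 other gene groups and all genes tested. Wild-type array 1 is high for the respiratory chain, ribosomal and proteasome groups, wild-type array 2 is also high for mitochondrial ribosomal proteins and the proteasome, and AA-supplemented array 2 separates the 2 sets of respiratory chain genes by mean.

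Around the chain, 2 genes were called in AA-deficient knockouts against wild type, both higher. They were 1 of 18 tested respiratory chain genes outside the naming rule, and 1 of 17 tested regulators. The first list held genes of electron carriers, ubiquinone synthesis and complex V, with Cyc1 of complex III, Dmac1 and Dmac2. Of all genes tested, 4.63% were called in that comparison, 3.08% higher, so these counts were not read as an excess. Coq8a, an atypical kinase needed for making ubiquinone, was at 1.719 and 1.647 in AA-deficient and at 1.504 and 1.368 in AA-supplemented knockouts, against 1.214 and 1.242 in wild type. The 3 groups did not overlap. Coq8a rose by 0.455 ± 0.055 (SE) in AA-deficient knockouts against wild type (limma adjusted p = 0.00962), did not pass between the knockout groups (0.247, adjusted p = 0.176) and lost its call without wild-type array 1 (0.12) or 2 (0.0799). Coq8a was the one gene called in AA-deficient knockouts against wild type among the 19 genes of its list with a value.

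Ppargc1b, the coactivator PGC-1beta of mitochondrial genes, was at 0.730 on each AA-deficient array and at 0.667 and 0.611 in AA-supplemented knockouts, against 0.478 and 0.521 in wild type. It rose by 0.2305 ± 0.0424 (SE) in AA-deficient knockouts against wild type (limma adjusted p = 0.0302), a call lost without the filter on low genes (0.0699), with the span trend removed (0.0522) and with any AA-deficient or wild-type array left out (0.132 to 0.211). The other 16 listed regulators did not pass, among them Ppargc1a (0.0533), Nrf1 (-0.0852), Esrra (-0.119) and Tfam (-0.0793). Of the mitochondrially encoded subunits, ND3 and COX2 had a value, and neither passed in any comparison (differences of 0.008 and 0.0481 in AA-deficient knockouts against wild type). Assembly factors outside the naming rule, 8 of complex I, 9 of complexes III and V and 17 of complex IV, held 0 calls in AA-deficient knockouts against wild type, with 7, 8 and 10 lower. Lyrm2, a LYR motif protein linked to complex I, had the lowest difference of the 8 (-0.172, adjusted p = 0.117).

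In bulk liver, fewer cells of a type and less RNA per cell cannot be told apart. Among 8 liver endothelium markers Stab2 rose in AA-deficient knockouts against wild type (0.237, limma adjusted p = 0.032), and the list's median was 0.0737. The summed linear level of these 8 markers was 139 to 145 in AA-deficient and 127 to 129 in AA-supplemented knockouts, against 135 to 144 in wild type. Stab2 lost its call in the same settings as Ppargc1b (adjusted p between 0.071 and 0.218). None of the other 9 marker lists held a called gene. The summed erythroid level (3 of 6 markers with a value, 1 of them under the filter) was 29.9 to 33.1 in AA-deficient and 33.9 to 36.1 in AA-supplemented knockouts, against 37.9 to 40.0 in wild type, lower without overlap in both. Of these 3 markers, Alas2, the heme synthesis enzyme of red cells, differed by -0.11 in AA-deficient knockouts against wild type (limma adjusted p = 0.191). The 3 did not move together in that comparison, with 2 lower and 1 higher (0.0583). Their median difference was -0.0053 there and -0.0114 in AA-supplemented knockouts. The summed neutrophil level, with 5 of 6 markers under the filter, was 6.94 to 7.68 in AA-deficient and 8.53 to 10.3 in AA-supplemented knockouts, against 9.47 to 9.7 in wild type. The part of cell composition in the members' differences was not tested.

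Promoters were printed for 4 members picked from those described above, and searched for strings of known regulators of the chain. Binding at these starts was not measured. The windows hold 250 bases before and 50 after the start, as given by RefSeq (GRCm38.p6), 5′ to 3′ on the strand of the gene, and capitals mark matches to the NRF1 string (GCGC, any 2 bases, GCGC, the same on both strands) and to the GABPA string (CCGGAAG on either strand). Sdhaf1, the one called member, lies at chr7:30322326-30322625 on the minus strand. Sdha, the member of highest difference, lies at chr13:74350191-74350490 on the minus strand. Ndufaf4 lies at chr4:24897833-24898132 on the plus strand and Cox6a1 at chr5:115348909-115349208 on the minus strand, the lower assembly factor and the lower complex IV subunit described above.
Sdhaf1: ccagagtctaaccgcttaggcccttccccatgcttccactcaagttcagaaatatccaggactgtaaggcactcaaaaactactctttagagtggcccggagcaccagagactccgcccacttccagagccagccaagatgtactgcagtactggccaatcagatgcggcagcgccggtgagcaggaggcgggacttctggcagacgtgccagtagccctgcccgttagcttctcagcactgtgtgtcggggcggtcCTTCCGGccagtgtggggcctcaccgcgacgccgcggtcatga
Sdha: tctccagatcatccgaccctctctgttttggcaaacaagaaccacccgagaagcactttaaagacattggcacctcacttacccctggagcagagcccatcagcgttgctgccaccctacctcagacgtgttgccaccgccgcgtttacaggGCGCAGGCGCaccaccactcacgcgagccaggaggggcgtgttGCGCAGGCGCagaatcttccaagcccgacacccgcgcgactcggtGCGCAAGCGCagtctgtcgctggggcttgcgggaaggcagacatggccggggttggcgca
Ndufaf4: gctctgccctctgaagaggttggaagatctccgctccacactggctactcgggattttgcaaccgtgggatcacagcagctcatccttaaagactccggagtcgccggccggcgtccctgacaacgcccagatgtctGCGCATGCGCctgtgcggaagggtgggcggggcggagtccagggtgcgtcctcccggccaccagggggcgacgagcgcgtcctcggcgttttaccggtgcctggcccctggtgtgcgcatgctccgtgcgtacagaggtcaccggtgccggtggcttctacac
Cox6a1: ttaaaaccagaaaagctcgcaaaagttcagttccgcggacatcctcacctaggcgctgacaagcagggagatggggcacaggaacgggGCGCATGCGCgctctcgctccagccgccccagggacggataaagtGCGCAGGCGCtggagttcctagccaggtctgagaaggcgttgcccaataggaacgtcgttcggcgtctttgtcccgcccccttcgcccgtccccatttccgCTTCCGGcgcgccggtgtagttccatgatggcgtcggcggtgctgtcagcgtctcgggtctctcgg
Sdha held 3 NRF1 strings, Cox6a1 held 2 with 1 GABPA string, Ndufaf4 held 1 NRF1 string and Sdhaf1 held 1 GABPA string. A member that was higher and members that were lower thus both carried NRF1 strings.

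Of the 93 members, 77 had a promoter in the table. The NRF1 string occurred in 22 of them (28.6%), against 12.7% of 11596 tested genes with a promoter and 7.0% of 27025 genes in all. The GABPA string occurred in 21 (27.3%), against 16.3% and 9.93%, a YY1 string in 5 (6.49%), against 1.91% and 0.995%, and the ESRRA string AAGGTCA in 7 (9.09%), against 4.39% and 5.38%. These are the share in members first, then in genes tested and in all genes, and matches were counted on both strands, 12 strings having been searched. CCAAT (42.9% against 41.9% of tested genes) and TATAAA (11.7% against 11.0%) were near the background. The remaining strings, some of which contain or overlap those above, were a full palindromic NRF1 form (9.09% against 1.91%), its short form GCATGCGC (15.6% against 4.95%), its long form (1.3% against 0.319%), CGGAAG (46.8% against 29.4%), CACGTGAC (1.3% against 4.1%) and TGACCTTTG (0 members against 0.466%).

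Members with and without the strings were both lower than wild type at the median. In AA-deficient knockouts against wild type the median difference was -0.038 in the 22 members with the NRF1 string and -0.0377 in the 55 without it. It was -0.0655 in the 21 members with the GABPA string and -0.0356 in the 56 without it. In AA-supplemented knockouts against wild type the medians were -0.0466 with and -0.0384 without the NRF1 string, and -0.0598 with and -0.036 without the GABPA string. For the YY1 string the AA-deficient medians were -0.0039 in the 5 members with it and -0.0406 in the 72 without it, and the AA-supplemented ones -0.0192 and -0.0435. For the ESRRA string they were -0.0671 in the 7 members with it and -0.0366 in the 70 without it, and -0.0781 and -0.0386 in AA-supplemented knockouts. These contrasts were not tested, and a match is a description of letters, not a bound site.

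Probe sets of 1 gene did not always agree. For the 18 members with more than 1 probe set (43 in all), both signs occurred in 9 members between the knockout groups, in 5 for AA-deficient knockouts against wild type and in 3 for AA-supplemented knockouts against wild type. The widest range was 0.193 between the knockout groups, for Atp5g2, one of the genes for subunit c of complex V. Sdhaf1, Sdha, Ndufb6 and Ndufaf4 had 1 probe set each.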

How the data were processed

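Liver RNA was measured on 6 arrays of the Affymetrix mouse Gene 1.0 ST type, 2 in each group, and groups follow the sample titles. Per the labels' protocols, RNA was isolated with ISOGEN and biotin-labelled with an Affymetrix terminal labelling kit. The authors deposited log values, taken here as log10; neither the base nor the normalisation was stated in the material used. The platform's annotation named the probe sets (21161 had 1 symbol). Genes whose mean reached the 25th percentile (0.185) entered a limma fit (version 3.58.1, R 4.3.3) of all 6 arrays, with residual degrees of freedom of 3 and a prior of 4.89. Tests were two-sided. The fit was also run on simulated data with spreads drawn from its own prior, which cannot check shifts of whole arrays. The number of arrays limits the precision.

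Members, lists and the naming rule were chosen with earlier results of these data known. In each comparison the rule named members past the threshold and otherwise the 6 of smallest p in each direction, plus complex II subunits, isoforms of other tissues, Ndufa4, Ndufa4l2 and Rgn. Sdhaf4, Ndufaf3, Ndufaf5 to Ndufaf7, Uqcr11, Uqcrc1, Atp5g2 and comparisons of a named member other than its own were added after their values were seen. Alternatives were other normalisations, filters, variance priors, removal of trends on span or mean, all probe sets, the replicate block, only the 4 arrays compared and leaving out each array.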

Additional observations from a re-analysis of the deposited data

How the results depend on the processing

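The count of all genes called between AA-deficient and AA-supplemented knockouts was 30 and became 0 with no filter, 14 after quantile normalisation, 13 after median centring or cyclic loess, 51 with the filter at the 50th percentile, 154 and 177 with a variance trend without and with robust fitting, 8 with the trend on mean value removed and 0 with only the 4 arrays compared. It ran from 0 to 46 with 1 array left out. For AA-deficient knockouts against wild type the 679 genes became 173 with no filter, 1057 at the 50th percentile, 1271 and 1312 with the variance trends, 452 with the span trend removed and 1031 with only the 4 arrays, and ran from 1 to 1031 with 1 array left out, 1 being the count without either wild-type array. For AA-supplemented knockouts against wild type the 1 gene became 94 and 116 with the variance trends and 2 with the span trend removed, and ran from 1 to 7.

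The members called in AA-deficient knockouts against wild type were 1, became 0 with no filter or the span trend removed and 2 with either variance trend (Ndufb6 added), and ran from 0 to 1 with 1 array left out. In the other comparisons 0 members were called in every setting run. The members' median difference ran from -0.0102 to 0.0152 between the knockout groups, from -0.0492 to -0.0124 in AA-deficient and from -0.0585 to -0.0093 in AA-supplemented knockouts against wild type, over the leave-outs. A lower median against wild type was kept in every setting run.

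With the replicate number as a block 4, 163 and 3 genes were called in the 3 comparisons and 0 members, and the calls of Sdhaf1, Ppargc1b and Stab2 in AA-deficient knockouts against wild type were lost (adjusted p = 0.0648, 0.0765 and 0.0716). Deviations of same-numbered arrays correlated at -0.369 (AA-deficient with AA-supplemented), 0.358 (AA-deficient with wild type) and -0.284 (AA-supplemented with wild type). Their signs differed, and these values cannot tell whether the numbers pair the samples.

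Directions of small differences turned. Between the knockout groups, with the span trend removed, Cox6a2 was 0.0006, Cox6b2 0.0082 and Cox7a1 0.0035, and Sdhb was -0.0016 after quantile normalisation and -0.0015 with the mean trend removed. Against wild type with the span trend removed, Cox4i2 was 0.004, Sdhaf3 -0.029 and Sdhd 0.0231 in AA-deficient knockouts. Among AA-supplemented knockouts, Ndufs1 was -1.6e-05 after median centring, and Sdhc was -0.0019 after quantile normalisation, -0.0021 after median centring, -0.0102 after cyclic loess and -0.0085 with the mean trend removed. With 1 array left out, the differences between knockout groups ran from -0.1064 to 0.0368 for Cox4i2, -0.065 to 0.0451 for Cox6a2, -0.1108 to 0.0788 for Cox6b2, -0.0654 to 0.0438 for Cox7a1, -0.0797 to 0.1498 for Cox8c, -0.0051 to 0.0624 for Ndufa4, -0.0473 to 0.0304 for Sdha, -0.0225 to 0.0378 for Sdhb and -0.0107 to 0.1056 for Uqcrfs1. In AA-deficient knockouts against wild type they ran from -0.0847 to 0.0585 for Cox4i2, -0.0503 to 0.01 for Sdhb, -0.0197 to 0.0109 for Sdhd and -0.0083 to 0.1149 for Ppargc1a. In AA-supplemented knockouts against wild type they ran from -0.015 to 0.1423 for Atp5b, -0.0316 to 0.0749 for Cox4i2, -0.1207 to 0.003 for Cox6a1, -0.1275 to 0.0622 for Cox6b2, -0.0147 to 0.1012 for Cox6c, -0.0967 to 0.1328 for Cox8c, -0.049 to 0.0549 for Ndufs1, -0.0007 to 0.0559 for Ndufv1, -0.032 to 0.0337 for Sdhc and -0.0211 to 0.076 for Uqcrc1. The causes were not tested.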
